A study of Homo sapiens with 12 samples.

Results

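The regions described here are the sites of open chromatin that differed between KO-52 cells transduced with the p30 isoform of CEBPA and KO-52 cells transduced with an empty vector (EV), both kept in DMSO. In ATAC-seq a transposase, Tn5, inserts adapters where DNA is accessible, so that sequenced fragments pile up over open promoters and enhancers and are called as peaks. The 2 replicates of each condition, with 50000 cells per library, were called as 1 pooled peak list. Peaks of the p30 list and of the EV list on chromosomes 1 to 22 and X were joined wherever they overlapped by at least 1 bp, which gave 237149 regions. Of these, 54357 (22.9%) held a peak in p30 cells and none in EV cells (p30-only), 33633 (14.2%) held a peak in EV cells and none in p30 cells (EV-only), and 149159 (62.9%) held both (shared). The 87990 unshared regions are set within 355051 regions of all 6 lists of the series, which also covers p42 cells and cells treated with tunicamycin (2 µg/mL, 8 h).

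KO-52 is an acute myeloid leukaemia line that carries mutations of both CEBPA alleles, and p30 and EV cells share this background. The authors describe p30 as the only intact CEBPA isoform in cells with the typical mutations of both alleles. The comparison therefore adds p30 to a mutant background, and the p30 already present in EV cells was not measured here. CEBPA encodes a transcription factor of the granulocyte and monocyte lineages. Its full-length form, p42, and its short form, p30, carry the same basic leucine zipper that binds DNA, but p30 is translated from a later start codon and lacks the N-terminal transactivation elements. The design text of the series gives the cells as transduced. The methods describe transduction of KO-52 with fusions of CEBPA to the ERT2 domain, active after 4-hydroxytamoxifen, for lasting expression, and electroporation with FLAG-tagged constructs for transient expression. They do not state separately which construct the ATAC-seq cells carried. Genes and their start sites are those of GENCODE 44 on hg38.

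GATA factors recognise the letters AGATAAG, on which the account of these regions turns. The 4 EV-only regions with the letters within 100 bp of the summit that were strongest in DMSO, and that again held an EV peak and no p30 peak after tunicamycin, are printed with 101 bases of hg38 (forward strand, from 5′ to 3′) around the midpoint of summit and match. They were chosen after their values were seen, to show the motif beside the summit. The peaks are narrow, and the match lies inside the called peak near ENSG00000250655 and just outside it in the other 3. The capitals mark AGATAAG, or CTTATCT where the match is on the reverse strand.
An intron of ADGRL1, an adhesion receptor gene, chr19:14190605-14190705: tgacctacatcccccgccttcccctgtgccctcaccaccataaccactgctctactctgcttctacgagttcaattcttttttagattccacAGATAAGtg
Intergenic, nearest to ENSG00000250655, chr4:96186813-96186913: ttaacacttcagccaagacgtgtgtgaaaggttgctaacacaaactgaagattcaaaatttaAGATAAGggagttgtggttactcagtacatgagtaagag
An intron nearest to the start of ENSG00000224228, chr1:172821736-172821836: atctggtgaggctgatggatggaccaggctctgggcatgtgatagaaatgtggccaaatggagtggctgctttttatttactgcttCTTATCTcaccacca
Intergenic, nearest to ENSG00000287473 and then to SASH1, chr6:148212628-148212728: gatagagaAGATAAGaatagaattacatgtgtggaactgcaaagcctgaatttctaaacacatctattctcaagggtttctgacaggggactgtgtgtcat

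The region in ADGRL1 held 12 tags in EV cells in DMSO and 4 after tunicamycin, with no p30 peak in either, and no p42 peak. The region near ENSG00000250655 held 12 tags in EV cells in DMSO and 10 after tunicamycin. The region near ENSG00000224228 held 16 and 11 tags, and the region near SASH1 held 11 and 8. All 4 are weak peaks with under 20 tags, and a missing peak says only that the threshold was not reached.

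Neither list gave an internal check of the transgene. CEBPA (chr19:33299934-33302534) held 1 peak in each of the 6 lists, over its promoter, with 39 fragment tags at the summit in EV and 44 in p30 cells in DMSO, and no summit lay in its exon. ESR1, the gene from which the ERT2 domain derives, held 3 peaks over exons in EV and 3 in p30 cells in DMSO. All 9 markers of myeloid leukaemia cells examined, among them PTPRC, CD33, SPI1 and MPO, had a shared region at a promoter, and the erythroid markers KLF1, HBB and ALAS2 had none. A promoter peak does not tell cell types apart by itself, since 3 of 4 T cell markers, 3 of 4 B cell markers and 4 of 5 epithelial and stromal markers had a shared one too. The libraries are of bulk cells, so an opening in every cell and an opening in a larger fraction of the cells cannot be told apart.

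The p30-only regions made up 26.7% of the regions of p30 cells (95% Wilson interval 26.5 to 26.9%) and the EV-only regions 18.4% of the regions of EV cells (18.2 to 18.6%). These intervals, like all intervals below, cover the counting of regions and no variation between libraries, and with 1 pooled list per condition no difference between p30 and EV cells could be tested. The p30 list was longer, with 207679 against 187704 peaks, and deeper, with an estimated 26531744 against 22249295 tags. p30-only regions were 61.8% of the unshared regions (61.5 to 62.1%). When both lists were trimmed to the same number of their strongest peaks, this share was 50.7% (50.4 to 51.1%), with 40192 p30-only and 39047 EV-only regions. After tunicamycin, where the EV list was the longer and deeper one, p30-only regions were 43.7% of the unshared regions (43.3 to 44%).

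The unshared regions were the weak end of both lists. Their median width was 81 bp for p30-only and 77 bp for EV-only regions, against 228 bp for shared regions. The median number of tags at the summit was 6 in p30-only and 6 in EV-only regions, against 14 (p30) and 13 (EV) in shared regions. Strength was ranked within each list as the percentile of the −log10 q of a peak, and the median percentile was 21 for p30-only, 17.8 for EV-only and 63.6 (p30) and 59.7 (EV) for shared regions. In the weakest decile of the p30 list, 72.0% of the regions had no EV peak, and in the strongest decile 0 of 20709 lacked one. The EV list went from 56.2% to 0 of 18761. A −log10 q of at least 10 was reached by 314 p30-only and 92 EV-only regions. Few regions lay at the edge of the overlap rule, with 257 p30-only and 255 EV-only regions within 10 bp of a peak of the other list and 450 shared regions joined by 10 bp or less.

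**Figure D1:**
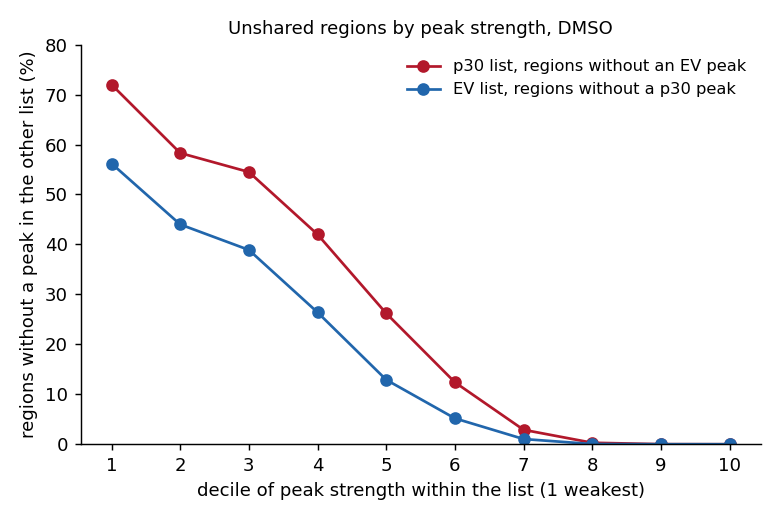
The share of regions without a peak in the other DMSO list (vertical axis, percent) is plotted against the decile of peak strength within the list (horizontal axis, 1 weakest), for p30 (red) and EV (blue). Both lines descend from 72.0% and 56.2% in the weakest decile to 0 in the strongest.

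Both kinds of unshared regions lay in the same kinds of places. A promoter, taken as 1000 bp on each side of an annotated start site, was overlapped by 12.6% of p30-only regions (12.3 to 12.9%), 13.2% of EV-only regions (12.9 to 13.6%) and 22.3% of shared regions (22 to 22.5%). Introns held 49.6% of p30-only and 49.9% of EV-only regions, and intergenic sequence 34.1% and 33.2%. The median distance to the nearest start site was 11.5 kb for p30-only and 11 kb for EV-only regions, and the median distance to the nearest shared region 5.44 kb and 4.99 kb. No chromosome stood apart, since the p30-only share of the unshared regions ran from 59.1% on chromosome 21 to 64.3% on chromosome 3. In 557 windows of 5 Mb it ran from 48.6 to 78.2%, and over these windows the DMSO and tunicamycin shares had a Pearson correlation of 0.13, given as a description since neighbouring windows share libraries and depth.

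The tunicamycin lists come from other libraries of p30 and EV cells and were not used to choose the regions. Of the p30-only regions, 12.6% (12.4 to 12.9%) again held a peak in p30 and none in EV cells after tunicamycin, 14.2% (13.9 to 14.5%) held the reverse, 15.8% held both and 57.4% held neither. Of the EV-only regions, 16.8% (16.4 to 17.2%) again held a peak in EV and none in p30 cells, 11.7% (11.4 to 12.1%) held the reverse and 56.3% held neither. Over all 237149 regions the background was 7.35% with a p30 peak alone and 9.51% with an EV peak alone. The number with a p30 peak alone per region with an EV peak alone was 0.893 in p30-only, 0.701 in EV-only and 0.772 in all regions. The order of the first 2 values is that of the DMSO classes, and the difference between them is small beside the large share of regions that did not recur. With equal numbers of peaks, 15.2% of p30-only and 14.6% of EV-only regions repeated their class, so that the order of these shares turned. Of the 314 strongest p30-only regions, 12.4% repeated the difference, 13.1% turned it and 67.2% held a peak in both tunicamycin lists.

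**Figure D2:**
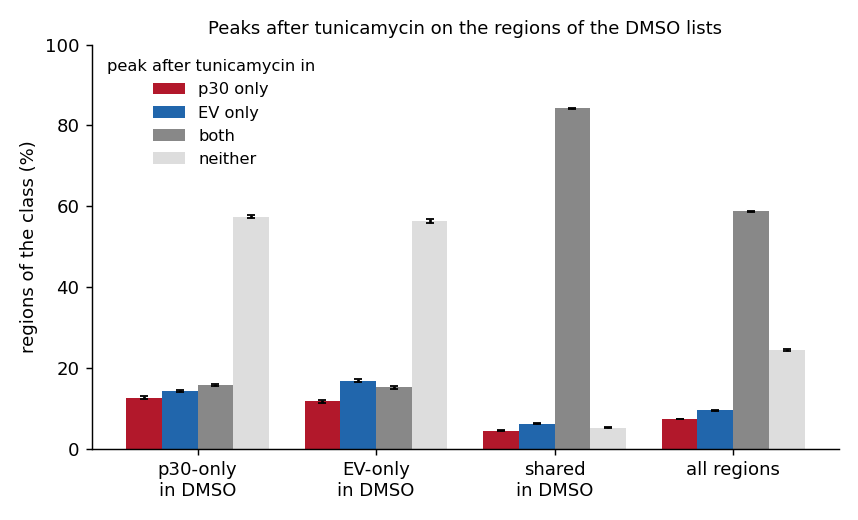
The bars give the percent of the regions of each DMSO class (horizontal axis) that held a peak after tunicamycin in p30 cells alone, EV cells alone, both or neither, with 95% Wilson intervals. Neither is the tallest bar for p30-only (57.4%) and EV-only regions (56.3%), and both is the tallest for shared regions (84.2%).

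Of 19 motifs searched, GATA had the lowest share in p30-only relative to EV-only regions of the DMSO lists. GATA1 and GATA2 are zinc finger factors of blood stem cells, megakaryocytes, mast cells and erythroid cells. GATA2 in particular maintains progenitors, and C/EBP factors and GATA factors drive partly opposed myeloid fates. The letters AGATAAG, searched on both strands within 100 bp of the summit, were found in 3.35% of all regions (3.28 to 3.43%) and in 3.41% of shared regions. They were found in 2.77% of p30-only regions (2.64 to 2.91%; 1506 of 54357) and in 4.07% of EV-only regions (3.86 to 4.28%; 1368 of 33633). The share in p30-only was 0.68 times that in EV-only regions (0.63 to 0.73). Regions with the motif therefore divided almost evenly between the classes, with 1.10 p30-only per EV-only region, where all regions had 1.62.

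The tunicamycin lists, in which the order of depth is turned, gave a similar ratio from their own unshared regions, with 2.81% of p30-only and 4.02% of EV-only regions and a ratio of 0.70 (0.65 to 0.75). Among the DMSO regions that repeated their class after tunicamycin, the letters were in 1.91% of the 6873 p30-only (1.61 to 2.26%) and in 5.31% of the 5634 EV-only regions (4.75 to 5.92%), a ratio of 0.36 (0.29 to 0.44). Among those that turned, the shares were 3.20% of p30-only and 3.88% of EV-only regions, closer to each other and on both sides of the share of all regions. p30-only regions with the motif held a peak in EV cells after tunicamycin in 31.6% of cases (29.3 to 34.0%) and in p30 cells in 24.0% (21.9 to 26.2%). Those without it held 29.9% and 28.6%.

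The difference was present at every strength of peak for which enough regions existed. The ratio was 0.71 below percentile 20, 0.71 from 20 to 40 and 0.49 from 40 to 60, and 0.60 above that, where 17 p30-only and 9 EV-only regions with the motif leave an interval of 0.27 to 1.33. It was 0.67 (0.62 to 0.72) outside promoters and 0.68 with deciles of GC content weighted equally, an alternative added after seeing the data. It was farther from 1 close to the summit, at 0.59 within 50 bp and 0.82 within 250 bp. The EV-only regions with the letters lay at a median of 13.3 kb from a start site, 7.68% of them at a promoter, and the p30-only ones at 12.7 kb, 9.03% at a promoter.

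The same direction appeared in the ranks of regions where both cell populations had a peak. These ranks come from the same peak calls as the classes. For the 124083 regions with a peak in all of the p30 and EV lists of both conditions, the percentile in p30 cells minus that in EV cells was taken in DMSO and after tunicamycin. Over these regions the 2 differences had a Pearson correlation of 0.05, so that region by region they hardly repeated. Regions with the GATA letters (4137) averaged −0.10 in DMSO and regions without them 3.32, a difference of −3.42 percentile points (SE 0.24). After tunicamycin the averages were −5.05 and −1.85, a difference of −3.20 (SE 0.25). These standard errors are over regions of the same libraries, which are not replicates. The difference was below 0 in 10 of 10 deciles of GC content and in 10 of 10 deciles of strength, in both conditions. Of the regions with the letters, 34.8% ranked lower in p30 than in EV cells in both conditions and 19.0% higher in both, against 23.2% and 27.7% of regions without them. A lower rank by at least 20 points in both was found for 101 regions with the letters (2.44%) and 1392 without (1.16%), and a higher rank by at least 20 points in both for 37 (0.894%) and 1918 (1.6%).

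Of the 4 shared regions with the letters that ranked lowest in p30 relative to EV cells in both conditions, chosen after their values were seen, 3 are shown in the same way. The match near ENSG00000229642 is within 100 bp of the summit but outside the called peak, and those of the other two are inside it.
An intron of CCDC171, chr9:16011863-16011963: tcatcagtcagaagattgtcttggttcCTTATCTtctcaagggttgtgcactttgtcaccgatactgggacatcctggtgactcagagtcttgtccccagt
Intergenic, nearest to ENSG00000229642, chr3:5613750-5613850: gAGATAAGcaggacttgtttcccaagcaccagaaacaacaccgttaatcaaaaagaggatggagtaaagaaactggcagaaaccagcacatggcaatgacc
Intergenic, nearest to ENSG00000250390, chr11:95505994-95506094: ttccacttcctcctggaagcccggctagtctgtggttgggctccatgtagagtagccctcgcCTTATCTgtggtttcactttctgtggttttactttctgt

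The region in CCDC171 held 8 tags in EV and 4 in p30 cells in DMSO, and again 8 and 4 after tunicamycin. Near ENSG00000229642 (nearest protein-coding gene EDEM1) the values were 12 and 6 tags in DMSO and 11 and 6 after tunicamycin. Near ENSG00000250390 (nearest protein-coding gene FAM76B) they were 13 and 7, then 13 and 6. In these 3 regions both EV lists held more tags than both p30 lists, which is how the regions were chosen. The GATA2 gene did not show such a difference at its own strongest promoter region (chr3:128482916-128483526), where EV and p30 cells had 33 and 34 tags in DMSO and 33 and 32 after tunicamycin. A second GATA2 promoter held a p30-only region (chr3:128486978-128487053) of 19 tags, with no peak in any of the other 4 lists. GATA1 had no promoter region in p30 or EV cells.

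**Figure D3:**
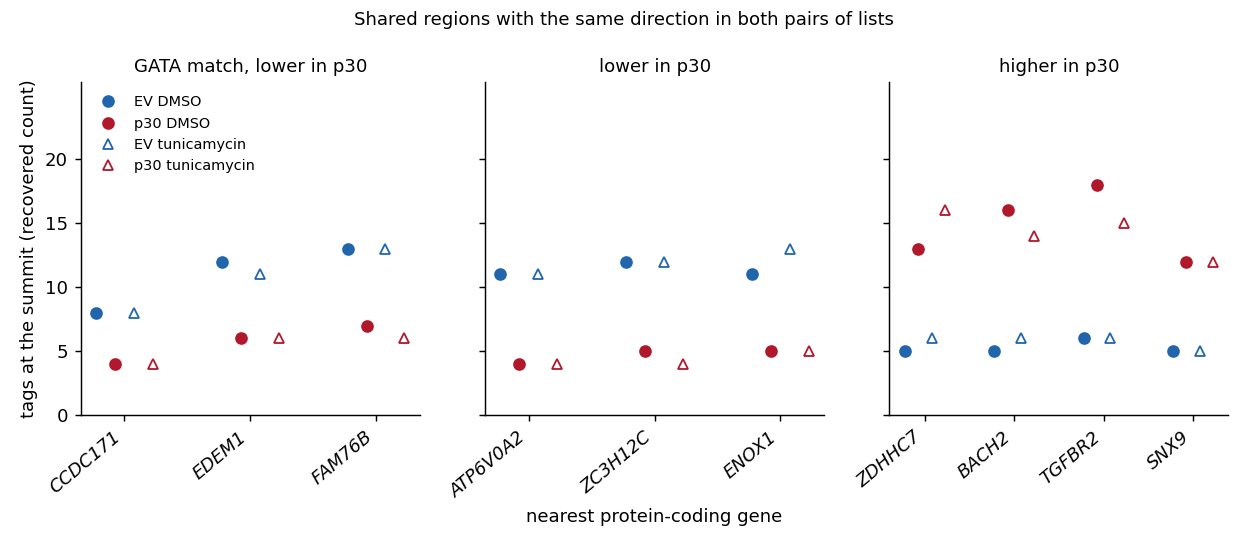
The recovered number of tags at the summit (vertical axis) is given in the 4 lists for 10 shared regions named by the nearest protein-coding gene, which starts up to 418743 bp away (horizontal axis), filled circles for DMSO and open triangles for tunicamycin, blue for EV and red for p30. The regions were chosen for a difference of the same direction in both conditions, and the p30 values sit below the EV values in the left and middle panels (4 to 7 against 8 to 13 tags) and above them in the right panel.

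The AP-1 motif showed a smaller difference in the same direction. AP-1 is the dimer of FOS and JUN proteins that answers stress and inflammatory signals, and its letters TGANTCA were in 14.0% of all regions. They were in 12.4% of p30-only regions (12.1 to 12.7%) and in 15.4% of EV-only regions (15.1 to 15.8%), a ratio of 0.80 (0.77 to 0.83). The ratio was 0.72 (0.66 to 0.79) in the regions that repeated their class and 0.91 (0.88 to 0.94) in the unshared regions of the tunicamycin lists. It fell with strength, from 0.87 below percentile 20 to 0.62 (0.45 to 0.87) above percentile 60. In regions of all 4 lists, those with the letters ranked lower in p30 relative to EV cells than those without by 1.52 points in DMSO (SE 0.12) and by 1.08 points after tunicamycin (SE 0.13).

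The C/EBP motif itself, TTGCNCAA, did not separate the classes. It was found in 2.86% of p30-only regions (2.72 to 3.00%), 2.81% of EV-only regions (2.64 to 2.99%) and 2.89% of shared regions, a ratio of 1.02 with an interval of 0.94 to 1.10, which fell on either side of 1 under other settings. The ratio in the tunicamycin lists was 1.11 (1.02 to 1.20), and 0.95 (0.78 to 1.17) in the regions that repeated their class. In the regions of all 4 lists the difference between regions with and without it was 0.30 points in DMSO (SE 0.26) and 0.43 after tunicamycin (SE 0.28). Where p30-only regions did hold the letters, 60% of them (57.6 to 62.4%) also held a peak in p42 cells in DMSO, against 43.8% of those without, and EV-only regions with the letters held one in 64.6% (61.5 to 67.6%), against 42.1%.

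PU.1, the ETS factor encoded by SPI1 that works beside C/EBP proteins in myeloid cells, was on the other side by a small margin. Its letters GAGGAAGT were in 6.41% of p30-only (6.2 to 6.61%) and 6% of EV-only regions (5.75 to 6.26%), a ratio of 1.07 (1.01 to 1.13) in DMSO, 1.06 (1.01 to 1.12) in the tunicamycin lists and 1.22 (1.07 to 1.39) in the regions that repeated their class. In regions of all 4 lists the difference was 0.79 points (SE 0.16) and 0.76 points (SE 0.17). The letters of the zinc finger KLF and SP factors, GGGCGGG, had ratios of 0.82 (0.76 to 0.89) and 0.80 (0.74 to 0.87), but their strength in shared regions differed by −1.16 points in DMSO and 0.12 after tunicamycin. RUNX letters (TGTGGTT) had a ratio of 0.91 (0.87 to 0.95) in DMSO and 0.98 (0.94 to 1.03) after tunicamycin. The composite of ATF4 and C/EBP, TGATGCAA, turned from 0.83 (0.72 to 0.96) to 1.35 (1.19 to 1.54), and NF-kB letters (GGANTTTCC) went from 1.26 (1.06 to 1.5) to 0.91 (0.78 to 1.07).

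**Figure D4:**
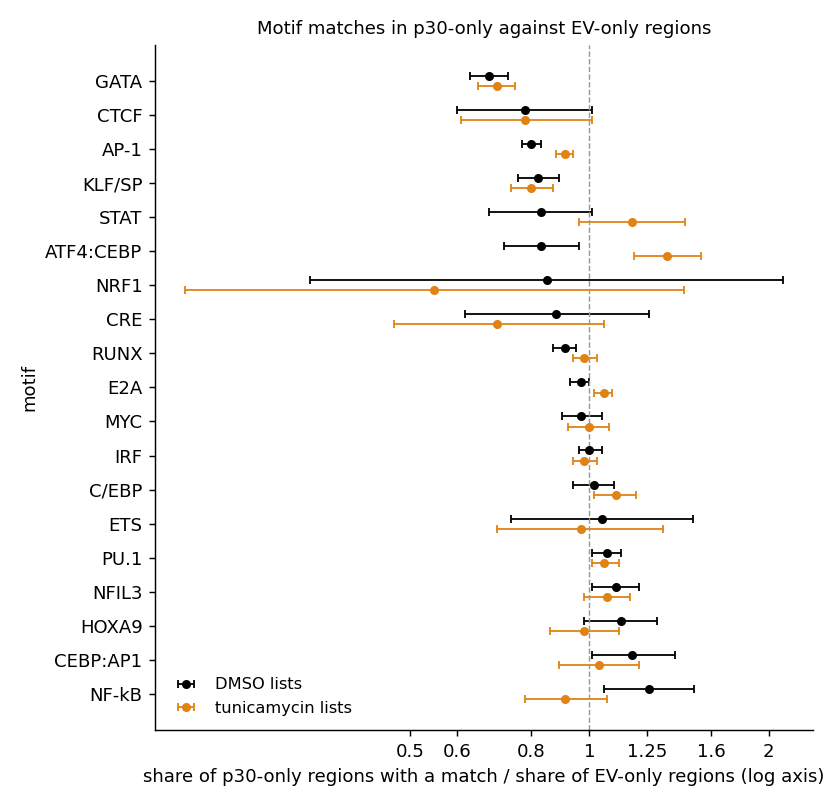
For each of 19 motifs (vertical axis) the share of p30-only regions with a match is divided by that of EV-only regions (horizontal axis, log scale) in the DMSO lists (black) and in the tunicamycin lists (orange), with 95% intervals for counting. GATA is lowest among the DMSO values at 0.68 with 0.70 after tunicamycin, C/EBP lies near 1, and the ATF4 and C/EBP composite changes side.

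The 2 strongest p30-only regions with PU.1 letters and the 2 strongest with C/EBP letters that again held a p30 peak and no EV peak after tunicamycin are printed as examples, chosen after their values were seen, with the match in capitals.
PU.1, an exon nearest to the start of MROH9, chr1:170863743-170863843: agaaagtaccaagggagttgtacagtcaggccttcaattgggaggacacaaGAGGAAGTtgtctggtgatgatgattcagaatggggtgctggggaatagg
PU.1 on the reverse strand, intergenic near RAD51AP2, chr2:17475451-17475551: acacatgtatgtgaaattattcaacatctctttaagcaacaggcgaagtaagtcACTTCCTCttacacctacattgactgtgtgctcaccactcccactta
C/EBP, intergenic near RNU6-996P, chr9:107675006-107675106: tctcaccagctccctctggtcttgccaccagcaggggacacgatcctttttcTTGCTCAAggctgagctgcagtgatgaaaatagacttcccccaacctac
C/EBP, an intron nearest to the start of LINC01012, chr6:27700518-27700618: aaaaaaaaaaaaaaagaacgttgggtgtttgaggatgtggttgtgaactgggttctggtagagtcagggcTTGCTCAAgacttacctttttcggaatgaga

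The region nearest to the start of MROH9, 71734 bp away, held 12 tags in p30 cells in DMSO and 6 after tunicamycin. The region near RAD51AP2 held 12 and 11, the region near RNU6-996P 12 and 6, and the region near LINC01012 10 and 5. All 4 also held a p42 peak in DMSO, at percentiles from 51.5 to 71.6.

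The p42 lists give a scale for these differences, with the limit that the p42 and p30 comparisons use the same EV lists. In the 112690 regions with a peak in all 6 lists, C/EBP letters went with a p42 minus EV difference of 6.34 points in DMSO (SE 0.33) and 5.30 after tunicamycin (SE 0.32), where the p30 minus EV values were 0.22 (SE 0.26) and 0.26 (SE 0.28). GATA letters went with −5.61 (SE 0.32) and −5.32 (SE 0.32) for p42, and with −3.24 (SE 0.25) and −2.95 (SE 0.26) for p30. AP-1 letters went with −6.21 and −5.50 for p42, and with −1.55 and −1.0 for p30. RUNX letters went with −4.87 and −4.28 for p42, and with −0.44 and −0.14 for p30.

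**Figure D5:**
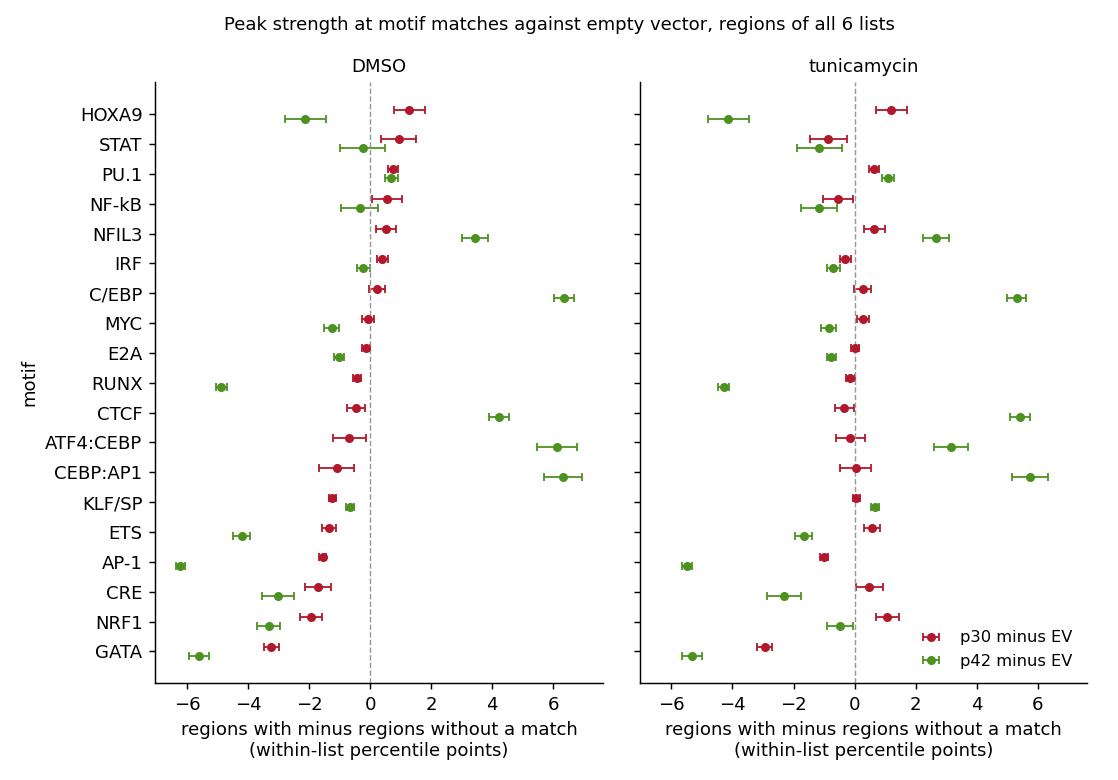
The mean difference in within-list percentile from EV cells, in regions with minus regions without each motif (horizontal axis, percentile points), is given for p30 (red) and p42 (green) in DMSO (left) and after tunicamycin (right), with standard errors over regions. For GATA both isoforms are below 0 in both panels (−3.24 and −5.61 in DMSO), and for C/EBP p42 is at 6.34 and p30 at 0.22.

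Promoters of protein-coding genes were examined next. Of 19962 genes, 4129 (20.7%) had a p30-only region over a promoter and 2858 (14.3%) an EV-only region, while 15571 (78.0%) had a shared region. Most unshared promoter regions lay beside a shared one, since 512 genes had a p30-only region and no shared region and 388 an EV-only region and no shared region. After tunicamycin 1328 of the genes with a p30-only promoter region had a p30-only one again and 1661 had an EV-only one. Of the genes with an EV-only promoter region, 1205 had an EV-only one again and 937 a p30-only one. Over all 19962 genes, 3253 (16.3%) had a p30-only and 4231 (21.2%) an EV-only promoter region after tunicamycin. Across 15 lists of 211 genes of blood cells, stress and inflammation, 53 genes had a p30-only and 44 an EV-only promoter region. The p30-only ones held 4 to 30 tags and the EV-only ones 4 to 22, none above percentile 52.0. In neither tunicamycin list were 19 of 62 p30-only and 28 of 52 EV-only ones, against 57.4% and 56.3% of all regions of these classes. Of the p30-only ones, 14 again held a p30 peak alone and 6 an EV peak alone. Of the EV-only ones, 6 again held an EV peak alone and 8 a p30 peak alone.

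Among myeloid transcription factors, which set the granulocyte and monocyte fates, 10 of 16 had a p30-only promoter region (62.5%, against 20.7% of all genes) and 7 of 16 an EV-only one (43.8%, against 14.3%). These genes have several promoters and many regions of every class, and the excess is in both directions. GFI1, a repressor needed for neutrophils, held p30-only regions of 23 and 22 tags, and ETV6 one of 18. SPI1 held an EV-only region of 14 tags at chr11:47377640-47377710, and KLF4 one of 9. RUNX1 held an EV-only region of 18 tags, in neither tunicamycin list, and a p30-only region of 17 tags, in both. At the strongest promoter region of SPI1 the EV and p30 values were 47 and 42 tags in DMSO and 46 and 42 after tunicamycin. Stem cell and leukaemia regulators were 7 of 16 with a p30-only promoter region (43.8%, against 20.7% of all genes) and 9 of 16 with an EV-only one (56.2%, against 14.3%). Of the EV-only regions at these promoters, one each at MECOM and PBX3 was again in EV and not in p30 cells after tunicamycin, and those of HOXA9, HOXA10 and CD34 were in neither tunicamycin list. The region of MECOM, a stem cell zinc finger factor, held 8 tags, while the whole MECOM locus held 19 p30-only and 5 EV-only regions in DMSO and 9 and 11 after tunicamycin. The strongest promoter region of CD34, the progenitor surface marker, held 23 tags in EV and 14 in p30 cells in DMSO (percentiles 82.0 and 54.3), with 20 and 17 after tunicamycin. A second promoter region of CD34 had the opposite order in DMSO, with 20 tags in EV and 29 in p30 cells (percentiles 59.1 and 77.1), so CD34 had no single direction.

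In the AP-1 and MAF family, 7 of 16 genes had a p30-only promoter region (43.8%, against 20.7% of all genes) and 3 an EV-only one (18.8%, against 14.3%). ATF3, a stress-induced member, had p30-only regions of 16 and 10 tags, and JUNB one of 19, JUN one of 16 and JUND one of 19. The regions of ATF3 and JUND were in both EV and p30 cells after tunicamycin, that of JUNB again in p30 alone, and that of JUN in neither. Within the bodies of these genes and 10 kb on each side, 24 regions were p30-only and 7 EV-only (77.4% p30-only, against 61.8% of all unshared regions), and after tunicamycin 8 and 15. At the promoter of FOS the EV and p30 values were 31 and 43 tags in DMSO and 39 and 36 after tunicamycin. The within-list percentiles were 77.2 and 90.3 in DMSO and 85.0 and 82.2 after tunicamycin. The order turned, as did the order of depth of the lists, and the tags are not adjusted for depth.

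Genes of primary granules, the proteases and peroxidase of early neutrophils, were the list with the lowest p30-only share in their loci in DMSO, with 3 p30-only and 11 EV-only regions (21.4%) in DMSO and 4 and 11 (26.7%, against 43.7% of all) after tunicamycin. The list was pointed out after the values were seen. The EV-only regions were spread over MPO, CTSG, LYZ, BPI and the adjoining AZU1, PRTN3 and ELANE, which share some of them. At the promoter of MPO the EV-only region held 14 tags and was in neither tunicamycin list. The EV-only promoter regions of LYZ, with 6 tags, and of AZU1, with 7, were in p30 cells alone after tunicamycin. PRTN3 held 3 EV-only promoter regions of 5 to 7 tags. Those at chr19:843510-843569 and chr19:844293-844402 were again in EV and not in p30 cells after tunicamycin, and that at chr19:843303-843382 was in neither. PRTN3 also held 1 p30-only region of 9 tags, again in p30 alone after tunicamycin, with C/EBP and PU.1 letters near its summit. The strongest promoter regions did not follow this count. CTSG held 13 tags in EV and 20 in p30 cells in DMSO and 15 and 22 after tunicamycin, and MPO held 34 and 35, then 27 and 28.

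Over all genes, 20.7% had a p30-only and 14.3% an EV-only promoter region, and the shares of the other lists stand beside these. In the C/EBP family none of 6 genes had a p30-only promoter region and CEBPE had an EV-only one, of 14 tags, in neither tunicamycin list of p30 or EV cells. CSF2RA and IL6R, receptors for GM-CSF and IL-6, had p30-only promoter regions, and CSF3R and EPOR EV-only ones (16.7% of 12 receptor genes in each direction). Of 11 secondary and tertiary granule genes, LTF and MMP9 (18.2%) had EV-only regions of 5 and 12 tags. Surface and effector genes of monocytes and neutrophils had 4 of 18 p30-only (22.2%), among them CLEC7A and ITGAM, and 1 EV-only (5.56%), CD36. Cytokines had 2 of 18 in each direction (11.1%), with CCL2 and IL18 p30-only and CCL5 and IL6 EV-only. NFKB2 and TNFAIP3 had EV-only regions, and no NF-kB gene of 10 had a p30-only one. The loci of the 10 genes held 9 p30-only and 13 EV-only regions in DMSO (40.9% p30-only, against 61.8% of all unshared regions). After tunicamycin these loci held 7 and 9 (43.8%, against 43.7% of all). Interferon response genes had IFIT1, IFIT3 and IFI44L p30-only (16.7% of 18) and OAS1, OAS2, OAS3 and ISG15 EV-only (22.2%). Stress response genes had XBP1, HSPA5 and VLDLR p30-only (16.7% of 18) and HSP90B1 and VLDLR EV-only (11.1%), so that VLDLR was in both. XBP1, the unfolded protein response factor, held 3 p30-only regions of 10 to 15 tags, of which 2 were again in p30 and not in EV cells after tunicamycin. Cell cycle genes had 7 of 18 p30-only (38.9%, against 20.7% of all genes), among them CDK6, E2F1, RB1, CDKN1B and CDKN2A, and CCND3, CDK2 and CDKN1A EV-only. PF4, a platelet gene, held 2 p30-only regions of 6 and 7 tags that were again in p30 alone after tunicamycin. Of 14 lymphoid genes, CD2, CD3D, IL7R, LEF1 and TCF7 (35.7%, against 20.7% of all genes) had p30-only promoter regions. IL7R and TCF7 also had EV-only ones (14.3%, against 14.3% of all genes).

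GATA letters were near the summit of 4 of the 52 EV-only promoter regions of listed genes, those of CD34, EPOR, BATF and TCF7, and of 1 of the 62 p30-only ones, that of CD3D. Over all promoter regions the letters were near 105 of 4450 EV-only (2.36%) and 136 of 6836 p30-only summits (1.99%), and in the whole loci of the listed genes near 13 EV-only and 13 p30-only summits, so these few promoters do not stand for the lists. The CD34 region held 12 tags and was in neither tunicamycin list, and the EPOR region held 13 and was in neither. The BATF region held 9 tags in EV cells and was in both tunicamycin lists.

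Where the strongest promoter region of a gene was in all 4 lists, its rank was compared in both conditions. Over 15153 protein-coding genes the median difference between p30 and EV cells was 0.68 points in DMSO and −0.33 after tunicamycin. In both conditions 246 genes ranked at least 10 points higher in p30 and 176 at least 10 points lower. Higher in DMSO and lower after tunicamycin by that much were 315, and the reverse 96. Of the listed genes, 4 ranked at least 10 points higher in both: CTSG, CHI3L1, IFIT1 and GP9. CHI3L1, a secreted glycoprotein of neutrophils, held 8 tags in EV and 13 in p30 cells in DMSO and 6 and 8 after tunicamycin. IFIT1, an interferon-induced antiviral gene, held 18 and 28, then 17 and 24. GP9, part of a platelet receptor, held 8 and 11, then 10 and 12. No listed gene ranked at least 10 points lower in both. FLT3, the progenitor receptor tyrosine kinase, came near with 25 and 21 tags in DMSO and 20 and 13 after tunicamycin, as did IL6 with 27 and 23, then 30 and 21.

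The gene loci with the largest excess of p30-only over EV-only regions were long genes. CSMD3 (1214 kb) held 45 p30-only and 17 EV-only regions, PCDH9 (928 kb) 45 and 17, GPC5 (1475 kb) 63 and 37, DLG2 (2173 kb) 35 and 13 and CSMD1 (2060 kb) 47 and 26. After tunicamycin all 5 held fewer p30-only than EV-only regions, such as 27 and 34 in CSMD3. The largest reverse excess was 2 p30-only and 10 EV-only regions at APBA2 and 1 and 9 at SLC25A48, a mitochondrial carrier gene. After tunicamycin SLC25A48 held 3 p30-only and 9 EV-only regions and APBA2 4 and 5. AEBP2, a partner of Polycomb repressive complex, held 3 and 9, then 4 and 1, and ARHGEF10 held 2 and 8, then 1 and 4, while ASPH held 3 and 9, then 6 and 7. Over all genes, 45.9% had more p30-only and 19.8% more EV-only regions in DMSO, against 24.4% and 40% after tunicamycin, in the order of the list lengths.

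The single strongest unshared regions were mostly distal and mostly had peaks in the other lists. The 3 strongest p30-only regions, each with 18 tags and a −log10 q of 18.8, lay at chr13:36475574-36475703 nearest to H2ACP1, at chr18:26595442-26595598 nearest to CIAPIN1P and at chrX:91414841-91414967 nearest to ENSG00000236413. All of the 10 strongest had peaks in both tunicamycin lists and in p42 cells. The first held 10 and 10 tags in p30 and EV cells after tunicamycin, and contains GATA letters. Others lay near ASAP1 (20 tags), TNFSF4 (15 tags) and at the promoter of USP3 (15 tags), a histone deubiquitinase, with C/EBP letters. The strongest EV-only region, chr13:68893205-68893314 in an intron nearest to LINC00550, held 19 tags in EV cells in DMSO, and 13 in p30 and 10 in EV cells after tunicamycin. NBEA (16 tags), BMP3 (14 tags) and PDE4D (14 tags) were nearest to others. A region nearest to RNU6-1241P (chr16:27954349-27954486) held 13 tags in EV cells in DMSO and again 13 after tunicamycin, without a p30 peak in either, and was the one of the 10 that repeated its class. Those nearest to ENSG00000224500 and RPL23AP70 turned it, with 6 and 10 tags in p30 cells after tunicamycin and no EV peak.

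Among shared regions the largest rise in rank from EV to p30 cells was in an intron of CSNK1G1 (chr15:64274632-64274811), with 5 tags in EV and 20 in p30 cells in DMSO, and 14 and 10 after tunicamycin. At the promoter of CAMK2B (chr7:44244400-44244522), a calmodulin-dependent kinase gene, EV and p30 cells held 9 and 28 tags, then 13 and 19. The largest fall was near CMKLR1, the chemerin receptor gene (chr12:108367368-108367740), with 20 tags in EV and 6 in p30 cells, then 20 and 11, and with AP-1 letters. Near OLFM4 the values were 20 and 7, then 11 and 12, and near FST 16 and 5, then 13 and 12. In NRXN3 they were 16 and 5, then 11 and 7. Regions that kept a difference in both conditions, chosen after seeing the values, were found near ZDHHC7 (5 and 13 tags, then 6 and 16), BACH2 (5 and 16, then 6 and 14), U3 (6 and 18, then 6 and 15; TGFBR2 is the nearest protein-coding gene, 273645 bp away) and SNX9 (5 and 12, then 5 and 12), all higher in p30. Lower in p30 were a promoter region of ATP6V0A2 (11 and 4, then 11 and 4), a region in ZC3H12C (12 and 5, then 12 and 4) and a region nearest to ENSG00000287842 (11 and 5, then 13 and 5; ENOX1 is the nearest protein-coding gene).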

How the data were processed

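Open chromatin was profiled by ATAC-seq in KO-52 cells, with 2 replicates per condition. The authors trimmed reads (Trim Galore 0.6.6), aligned them to hg38 (Bowtie2 2.4.4), removed duplicates (Picard) and called peaks with MACS2 on the pooled replicates. Their methods cover ChIP-seq and ATAC-seq together, and a Tn5 shift and a mitochondrial filter are not given in the sources used here. Without such a shift, summits lie off by a few bases, little against the windows searched. The deposited fold enrichment is a ratio of pileup to local background. The deposited −log10 p and −log10 q rank peaks within a list and are not normalized between lists. The deposited summit offset is in bp.

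The p-value and fold were solved for the tags at each summit, whole for 100% of peaks, and the background, whose minimum with a genome size of 2700000000 bp gives the estimated depth. Peaks on chromosomes 1 to 22 and X were merged at 1 bp. No test was possible between single pooled lists, so shares have 95% Wilson and ratios 95% log-scale intervals, which cover counting only. Exact letters of 19 motifs were searched on both strands within 100 bp of the summit, and none of GATA, AP-1, C/EBP, PU.1 and RUNX lies inside another. Loci are gene bodies with 10 kb on each side.

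The members, gene lists and motifs were chosen with earlier results of these data known. Genes named are listed genes with an unshared promoter region, those nearest to the 10 strongest unshared regions per class, the 5 loci per direction with the largest excess, those nearest to the 5 largest rank changes per direction among shared regions at or above percentile 50 in a list, and CEBPA and ESR1. Others are said to be chosen after their values were seen, as were the GATA motif and the strongest shared promoter regions. Alternatives were equal list sizes, stricter q, depth scaling, 50% overlap, other merging, autosomes, other widths and windows, and standardisation. Steps were tested on simulated data, with Python 3.11.15, numpy, pandas, scipy and matplotlib. The p42 lists were used only as a scale. A few regions and 1 marker are not reported here.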

Additional observations from a re-analysis of the deposited data

Results flagged for a closer look

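The p30-only share of the unshared regions was 61.8% in DMSO and 43.7% after tunicamycin, on opposite sides of an even split. The list of p30 cells was the longer and deeper one in DMSO and the shorter and shallower one after tunicamycin. The difference between the conditions was not tested, since each list pools 2 replicates.

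The share with the composite letters of ATF4 and C/EBP in p30-only regions was 0.83 times that in EV-only regions in DMSO. It was 1.35 times that in EV-only regions after tunicamycin, an inducer of the unfolded protein response, in which ATF4 is made. The intervals lie on opposite sides of 1, and this difference was not tested either.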

How the results depend on the processing

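No paired analysis was possible because each list pools both replicates, and for the same reason no replicate could be left out. Of 115 values of 11 results under alternatives, 61 stayed within the counting interval of the reported value or within 1.5 times the reported count, and the AP-1 and GATA ratios were below 1 under every alternative run. The C/EBP ratio crossed 1, with 0.98 at equal numbers of peaks, 0.99 at a −log10 q of 2 or more and 0.97 with a window of 250 bp. All alternatives for GATA and the weighting by GC content were chosen after seeing the data. The cause of the other 54 changes was not tested.

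When both lists were limited to a −log10 q of 5 or more there were 25421 p30-only and 15403 EV-only regions, a p30-only share of 62.3%, promoter shares of 14.6% (p30-only) and 14.5% (EV-only), repeats after tunicamycin of 14.1% and 19.5%, and ratios of 0.77 for AP-1 and 0.63 for GATA. At 10 or more there were 13677 p30-only, 7343 EV-only and 61637 shared regions, a share of 65.1%, promoter shares of 16.0% and 15.3%, repeats of 14.4% and 21.9%, and ratios of 0.91 for C/EBP, 0.75 for AP-1 and 0.47 for GATA. With 10 in the list with the peak and no peak in the other there were 314, 92 and 82220 regions, a share of 77.3%, promoter shares of 11.8% and 5.43%, a repeat of 17.4% of EV-only regions, and ratios of 0.57 for AP-1 and 0.59 for GATA, the last on 8 and 4 matches.

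With equal numbers of peaks the p30-only share was 50.7%, the promoter share of p30-only regions 13.2%, and the repeats 15.2% (p30-only) and 14.6% (EV-only), so that their order turned. Scaling by depth gave a share of 58.7%, a promoter share of 12.9% and a repeat of 13.1% for p30-only regions. Requiring 50% of the peak covered gave a share of 60.8%, promoter shares of 13.7% and 14.3% and repeats of 12.2% and 16.1%. Merging over all 6 lists gave promoter shares of 11.9% and 12.4% and a repeat of 12.3% for p30-only regions. Promoters of 500 bp gave 7.96% and 8.56%, and of 2000 bp 18.7% and 19.4%. Motif windows of 50 bp gave ratios of 0.75 for AP-1 and 0.59 for GATA, and of 250 bp 0.89 and 0.82. Equal weight of strength deciles gave 0.73 for AP-1 and 0.61 for GATA.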
